A study of Xenopus laevis with 8 samples.

Results

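Forkhead (Fox) transcription factors share a winged-helix DNA-binding domain and are named by letter for their subfamily. In the vertebrate embryo many of them are restricted to one lineage. FoxA factors open chromatin in endoderm and in the axial midline, FoxC and FoxF factors act in mesoderm, FoxD3 marks the premigratory neural crest, and FoxI factors act in the nonneural ectoderm and its placodes. Others, such as FoxK, FoxN, FoxO and FoxP factors, are expressed broadly, and the levels of the restricted genes can therefore be read by lineage.

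The genes described here were taken by symbol. Probe sets listed with a single gene were kept where the symbol, without the suffix .L or .S, begins with fox, 1 letter and a digit, and a pair of base symbols was left out. *Xenopus laevis* is allotetraploid, and the suffixes .L and .S tell apart gene copies from its long and short chromosome sets. This gave 49 probe sets for 39 genes and 31 base symbols, out of 32635 probe sets on the array, of which 15495 were listed with 1 gene. All 49 gene identifiers were found in the RefSeq gene table with the same symbol. The genes were sorted into lineages by where each is known to be expressed, and L and S copies are given separately.

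Expression was measured in neurulae injected on one side with morpholinos, antisense oligonucleotides that here block translation. xSuv4-20h double morphants received morpholinos against xSuv4-20h1 and xSuv4-20h2, histone methyltransferases that turn monomethylated lysine 20 of histone H4 into its di- and trimethylated forms, and control morphants received a standard control morpholino. The 8 arrays formed 4 groups of 2 replicates, defined by the morpholino (control or double) and by the side (injected or uninjected). The labels give 40 ng of morpholino in total, placed in neighbouring blastomeres of one side, whereas the study's methods describe a different dose, injected into 1 blastomere at the 2-cell stage, and the dose of these arrays is therefore not settled. Embryos were cut along the midline and corresponding sides of several embryos were pooled, so that an injected and an uninjected sample with the same morpholino and replicate number came from the same embryos. The replicates were separate experiments. An uninjected side belongs to an injected embryo and is not an untreated embryo. Since the morpholinos block translation, no mRNA level on the arrays checks the depletion.

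Values are log2 expression values. Array medians lay between 5.09 and 5.19, and 31.7% of all values were below 2.5, close to the lowest value of the arrays, 2.14. In the injected sides of control morphants the replicate 2 array stood apart for some, but not all, genes of the axial midline. There shh.L, which encodes the notochord and floor plate signal Sonic hedgehog, read 2.76, against 7.11 to 9.70 on the other 7 arrays, and not.L, a notochord gene, read 6.42, against 7.61 to 8.63. tbxt.L and tbxt.S, also counted here with the midline, read 10.80 and 10.60 there, within the range of the other arrays. The mean of 25 neural plate and forebrain genes was also lowest on this array, at 7.68. Some muscle genes were low on the injected replicate 2 arrays of both kinds of morphant. myh4.L, a myosin heavy chain gene, read 6.59 in control and 7.62 in double morphants there, against 11.54 to 12.88 on the other 6 arrays. actc1.L, an actin gene of muscle, read 10.62 and 11.35, against 13.07 to 13.34. myod1.S read 8.90 and 9.53, against 9.98 to 10.49. Other readings there lay within the range of the other 6 arrays. They were myod1.L in double morphants (8.57, against 8.38 to 9.95) and myf5.L in control morphants (10.41, against 10.35 to 11.22).

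Of the 39 forkhead genes, 30 had a mean of at least 4 in at least 1 group and were tested among 8219 genes. These were 6 genes of nonneural ectoderm and placodes, 3 of the neural plate and forebrain, 2 of the neural crest, 6 of mesoderm, 5 of the midline and endoderm, 1 of early Nodal signalling and 7 expressed broadly. A gene was called when its local false discovery rate (local fdr, the estimated share of unchanged genes among genes with the same test statistic) was below 0.2 in a linear model fitted with limma. The adjusted p after Benjamini and Hochberg is given beside it, and no forkhead gene had an adjusted p below 0.05 in any comparison.

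The largest forkhead difference between double and control morphants was in *foxf1*, which is expressed in lateral plate and visceral mesoderm and is known for its role in gut muscle and coelom formation. On injected sides foxf1.L read 8.02 and 8.25 in control morphants and 6.34 and 7.04 in double morphants. On uninjected sides it read 7.44 and 7.41 in control morphants and 6.38 and 6.53 in double morphants. All 4 arrays of double morphants thus lay below all 4 arrays of control morphants, on the side that received the morpholino and on the other side. Its homeolog foxf1.S read 6.15 and 6.42 on injected sides of control morphants and 4.49 and 5.25 on injected sides of double morphants. The uninjected sides read 5.40 and 5.72 in control and 4.63 and 4.46 in double morphants. Here, too, the arrays of the different morpholinos did not overlap.

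**Figure D1:**
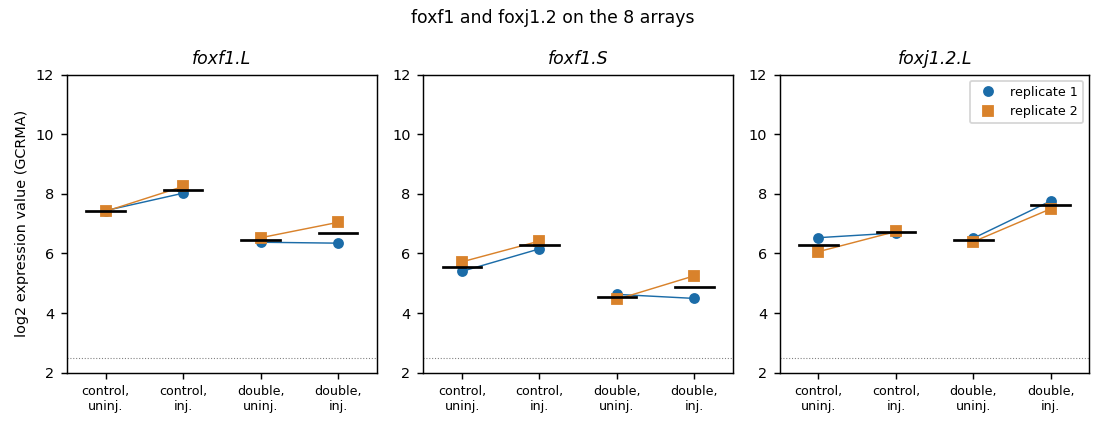
Log2 expression values of foxf1.L, foxf1.S and foxj1.2.L on the 8 arrays, by morpholino (control or double) and side (uninjected or injected). Points are single arrays (circles replicate 1, squares replicate 2), thin lines join the sides of the same embryos, black bars are group means of 2 arrays and the dotted line marks 2.5; for both foxf1 copies the 4 arrays of double morphants lie below the 4 of control morphants, and foxj1.2.L is highest on the injected sides of double morphants (7.76 and 7.50).

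On injected sides foxf1.L was lower in double than in control morphants by 2.71-fold (log2 -1.44 ± 0.26, SE, local fdr 0.00876, adjusted p = 0.0669, limma). foxf1.S was lower by 2.66-fold (log2 -1.41 ± 0.29, local fdr 0.0402, adjusted p = 0.0825, limma). On uninjected sides the differences were -0.97 ± 0.26 for foxf1.L (local fdr 0.00469) and -1.02 ± 0.29 for foxf1.S (local fdr 0.0159), both with an adjusted p of 1 in limma. Together with foxj1.2.L these copies made 3 of the 30 forkhead genes called on injected sides, where 5.6% of all genes were called, and they were the 2 called on uninjected sides, where 2.47% of all genes were called. The spread of test statistics taken for unchanged genes was fitted per comparison, with an SD of 1.37 on injected and 0.813 on uninjected sides. Local fdr values of different comparisons therefore cannot be set against each other. In such samples of whole embryo sides fewer cells of a type and less RNA per cell cannot be told apart.

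The sides did not differ detectably in this respect. The difference between injected and uninjected sides in the effect of the double morpholino was -0.47 for foxf1.L (95% interval -1.35 to 0.42) and -0.40 for foxf1.S (-1.39 to 0.60). With both sides averaged, a comparison added after the values had been seen, foxf1.L was lower by 2.31-fold (log2 -1.21 ± 0.18, local fdr 0.000265, adjusted p = 0.0882, limma) and foxf1.S by 2.32-fold (log2 -1.22 ± 0.20, local fdr 0.00214, adjusted p = 0.0967, limma). No other forkhead gene was called in it, against 5.02% of all genes. This comparison counts both sides of the same embryos as separate arrays. Its SE and local fdr can therefore be too small, which was not tested. These averaged differences stayed called when any of the 8 arrays was left out, and ranged from -1.38 to -1.03 for foxf1.L and from -1.41 to -1.03 for foxf1.S.

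Single sides were less stable. On injected sides foxf1.L lost its call without replicate 2 of the injected control sides (log2 -1.33). foxf1.S lost it without either injected control array (-1.55 and -1.28) and without replicate 1 of the injected double morphant sides (-1.03). On uninjected sides both copies lost their calls without replicate 1 of the uninjected control sides (-0.96 for foxf1.L and -1.18 for foxf1.S) or without replicate 2 of the uninjected double morphant sides (-1.05 and -0.93), and foxf1.S also without replicate 2 of the uninjected control sides (-0.86). With the experiment as a block, foxf1.L remained called on either side and foxf1.S on neither.

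Within control morphants both copies were higher on injected than on uninjected sides in both replicates, by 0.58 and 0.83 for foxf1.L and by 0.75 and 0.70 for foxf1.S. These differences (0.71 ± 0.26 and 0.72 ± 0.29) were not called (local fdr 0.350 and 0.491). Within double morphants the replicates differed in sign, with -0.03 and 0.52 for foxf1.L and -0.14 and 0.79 for foxf1.S. The gene next to foxf1.L in the annotation, mthfsd.L, differed by 0.41 ± 0.26 on injected and 0.35 ± 0.26 on uninjected sides between double and control morphants, opposite in sign to foxf1.L. Beside foxf1.S, kars1.S differed by -0.14 ± 0.15 and 0.12 ± 0.15. The nearest tested genes on the other side had the sign of *foxf1* on injected and the opposite sign on uninjected sides. They were MGC85216 near foxf1.L, with -0.31 ± 0.18 and 0.10 ± 0.18, and cox4i1.S near foxf1.S, with -0.64 ± 0.19 and 0.03 ± 0.19.

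The other mesodermal forkhead genes were not called between the morphants. foxc1.L, a gene of the paraxial mesoderm, read 9.96 and 9.34 on injected and 9.58 and 9.55 on uninjected sides of control morphants. In double morphants it read 9.26 and 9.15 on injected and 9.24 and 9.10 on uninjected sides, each below every control array. The averaged difference was -0.42 ± 0.16 (local fdr 0.713). foxf1.L, foxf1.S and foxc1.L were the 3 of 30 forkhead genes whose 4 double and 4 control arrays did not overlap, a pattern found in 7.17% of all genes. *foxc2*, also of the paraxial mesoderm, differed on injected sides by 0.04 ± 0.29 for foxc2.L and -0.36 ± 0.36 for foxc2.S.

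Of 18 other mesodermal genes tested, none was called in limma on injected sides, where 1 had an unadjusted p below 0.05 (median -0.13, against -0.01 over all genes), and 1 was called on uninjected sides (median -0.15, against -0.03). That gene was lhx1.L, which is active in intermediate mesoderm and the organizer and was lower by 0.79 (SE 0.20, local fdr 0.00280). hand1.L, a lateral plate and heart gene like *foxf1*, read 7.98 and 8.33 on injected control sides and 7.34 and 6.97 on injected double morphant sides. Its difference of -0.998 ± 0.278 was not called (local fdr 0.304), and on uninjected sides it was 0.25 ± 0.28. bmp4.L and bmp4.S, which encode a ventral signal, differed by -0.38 ± 0.19 and -0.47 ± 0.22 on injected sides. Neither was called (local fdr 0.917 and 0.868), and both differed by -0.09 on uninjected sides. Of the 18 genes, 11 were lower and 7 higher on injected sides, and the highest was myod1.L at 0.52 ± 0.82. gata6.S, a factor of heart and endoderm counted here with the endoderm, read 6.56 and 6.87 on injected control sides and 5.28 and 5.53 on injected double morphant sides. It fell by 1.31 (SE 0.25, local fdr 0.0164) on injected sides, and its difference of -0.33 ± 0.25 on uninjected sides was not called. The mean of the 18 mesodermal genes was 8.996 and 8.083 on injected and 8.90 and 8.71 on uninjected sides of control morphants. In double morphants it was 8.69 and 8.16 on injected and 8.84 and 8.60 on uninjected sides, and the part of overall mesoderm content in the *foxf1* values was not tested.

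The 6 forkhead genes of nonneural ectoderm read higher on injected than on uninjected sides of double morphants, and 1 of them, foxj1.2.L, was called against the injected sides of control morphants. foxj1.2.L belongs to a subfamily known for switching on genes of motile cilia. On injected sides it read 7.76 and 7.50 in double morphants and 6.69 and 6.74 in control morphants. On uninjected sides it read 6.51 and 6.39 in double morphants and 6.53 and 6.06 in control morphants. The injected sides of double morphants thus lay above the other 6 arrays. Against injected control sides foxj1.2.L rose by 1.89-fold (log2 0.92 ± 0.21, local fdr 0.156, adjusted p = 0.102, limma). This call was lost when either injected control array, either injected double morphant array or either uninjected double morphant array was left out, although the difference stayed between 0.78 and 1.05.

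Against the uninjected sides of the same double morphants the difference of foxj1.2.L was 1.18 ± 0.21, with 1.25 and 1.10 in the replicates. It just missed the threshold (local fdr 0.226, adjusted p = 0.0887, limma) and passed it with arrays centred on their medians, where the difference was 1.23. In control morphants the sides differed by 0.42 ± 0.21. The injection effect of double minus that of control morphants was 0.76 (95% interval 0.03 to 1.49, local fdr 0.516), so that a larger effect in double morphants was not called.

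The FoxI genes showed the same sign within double morphants and no call. foxi4.2.L, a gene of nonneural ectoderm and placodes, read 7.35 and 7.90 on injected and 6.48 and 6.40 on uninjected sides of double morphants. In control morphants it read 7.10 and 7.97 on injected and 7.42 and 6.65 on uninjected sides. The injected sides of both kinds of morphant thus overlapped, and the uninjected sides of double morphants were the lowest of the 8 arrays. foxi4.2.S read 8.24 and 8.29 on injected and 7.77 and 6.56 on uninjected sides of double morphants, and 8.15 and 8.94 and 8.19 and 7.76 on those of control morphants. Between the sides of double morphants the copies differed by 1.19 ± 0.39 and 1.10 ± 0.45 (local fdr 0.887 and 0.966), and the 3 further probe sets for foxi4.2.S by 0.71 to 1.15. On uninjected sides the copies were -0.60 ± 0.39 and -0.81 ± 0.45 in double against control morphants.

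**Figure D2:**
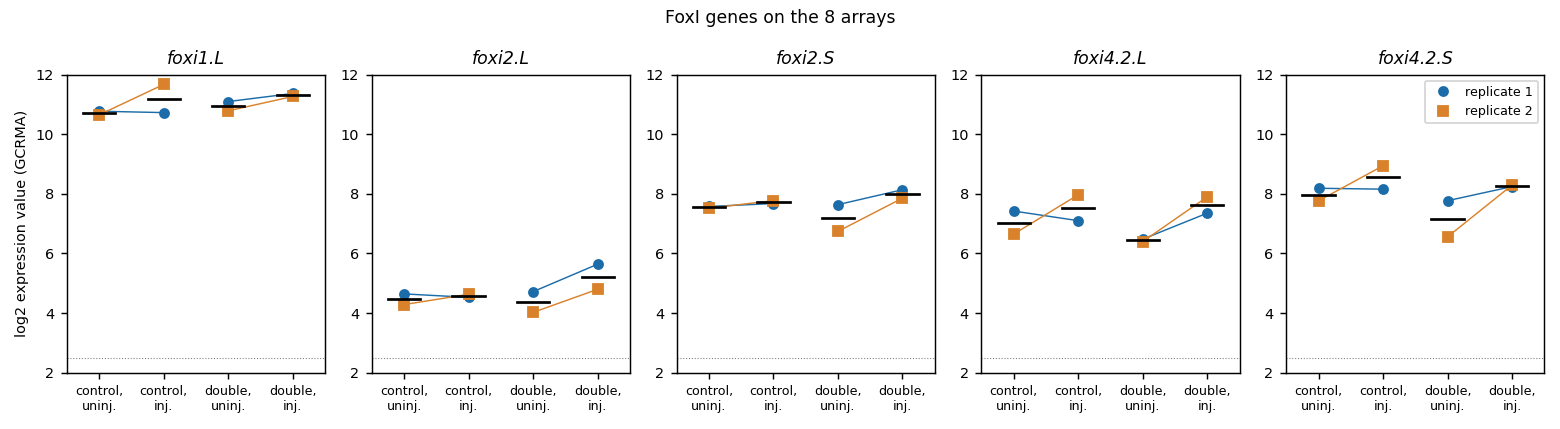
Log2 expression values of 5 FoxI genes on the 8 arrays, by morpholino and side. Points are single arrays (circles replicate 1, squares replicate 2), thin lines join the sides of the same embryos, black bars are group means of 2 arrays and the dotted line marks 2.5; within double morphants every injected array lies above both uninjected arrays, whereas foxi1.L, foxi2.L, foxi4.2.L and foxi4.2.S overlap between the sides of control morphants.

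foxi2.L and foxi2.S are copies of a maternal activator of ectodermal genes. Between the sides of double morphants they differed by 0.85 ± 0.36 and 0.81 ± 0.31, against 0.11 ± 0.36 and 0.18 ± 0.31 in control morphants. foxi1.L, the regulator of epidermal ionocytes, the cells that transport ions and acid in the skin, had a high reading on all arrays (10.65 to 11.67) and differed between the sides by 0.38 ± 0.32 in double and 0.49 ± 0.32 in control morphants. The latter value rested on replicate 2 of the injected control sides (11.67), without which it was 0.01. All 6 genes of the group were thus higher on the injected sides of double morphants (median 0.98, against 0.04 over all 8219 genes) without overlap of their arrays. The means of the 6 were also higher on the injected sides of control morphants (median 0.45, against 0.04). In the replicate 1 pair of control sides, however, foxi1.L, foxi2.L, foxi4.2.L and foxi4.2.S were lower on the injected side (-0.32 to -0.03). foxi2.S and foxj1.2.L were higher in that pair (0.10 and 0.16). Without replicate 2 of the injected control sides the 6 control differences lay between 0.01 and 0.39. Between double and control morphants their median was 0.196 on injected and -0.225 on uninjected sides. Between the sides of double morphants none was called, and 3 had an unadjusted p below 0.05 in limma, against 21.2% of all genes. Arrays that did not overlap were common in this comparison, in 52% of all genes and in 15 of the 30 forkhead genes.

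Most other genes of the nonneural ectoderm did not share this sign. Of 16 tested, 12 were lower and 4 higher on injected sides of double morphants (median -0.29). None was called in limma, and 2 higher and 3 lower genes had an unadjusted p below 0.05. The 4 higher genes were grhl1.L (1.34 ± 0.24), grhl3.L (0.88 ± 0.33), ubp1.L (0.56 ± 0.32) and ca12.L (0.005 ± 0.296). In control morphants grhl1.L was called higher on injected sides, by 1.02 (SE 0.24, local fdr 0.00316). Between uninjected sides, 4 of the 16 were called higher in double morphants, where 2.47% of all genes were called. All 4 are genes that ionocytes use for acid transport. They were ca2.S, ca2.L and ca12.L, which encode carbonic anhydrases, with 3.14 ± 0.63, 1.32 ± 0.29 and 0.97 ± 0.30, and atp6v1b1.L, a subunit of the proton pump, with 1.27 ± 0.45. Their local fdr was 1.8e-06, 1.3e-05, 0.0145 and 0.073 in this order. No gene of the 8219 had an adjusted p below 0.05 in limma in this comparison. On injected sides none of the 4 was called, with 2.16 ± 0.63, 0.61 ± 0.29, 1.23 ± 0.30 and -0.07 ± 0.45 in the same order. Between uninjected sides foxi1.L differed by 0.23 ± 0.32 and read 11.09 and 10.78 in double and 10.77 and 10.65 in control morphants. The mean of the 16 genes on uninjected sides was 8.79 and 8.37 in double and 8.33 and 7.87 in control morphants.

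FoxD genes of the neural plate, neural crest and somites had lower means on the injected sides of both kinds of morphant, without a call. foxd3.L, a regulator of premigratory neural crest, read 5.74 and 4.94 on injected and 7.47 and 8.20 on uninjected sides of double morphants. In control morphants it read 6.92 and 4.99 on injected and 7.49 and 7.22 on uninjected sides. Its copy foxd3.S read 8.40 and 7.27 on injected and 9.22 and 9.61 on uninjected sides of double morphants, and 8.78 and 7.55 on injected and 9.35 and 9.19 on uninjected sides of control morphants. For both copies each injected array lay below its uninjected partner and below all 4 uninjected arrays.

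**Figure D3:**
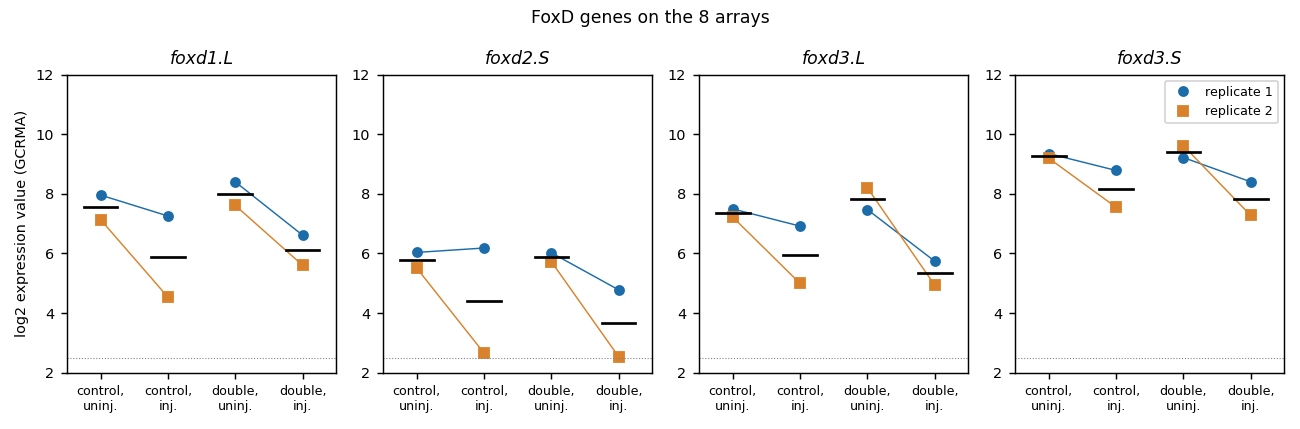
Log2 expression values of foxd1.L, foxd2.S, foxd3.L and foxd3.S on the 8 arrays, by morpholino and side. Points are single arrays (circles replicate 1, squares replicate 2), thin lines join the sides of the same embryos, black bars are group means of 2 arrays and the dotted line marks 2.5; the drop from the uninjected to the injected side is larger in replicate 2 for all 4 genes in both kinds of morphant, and the 2 injected replicate 2 arrays of foxd2.S (2.66 and 2.53) lie close to 2.5.

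foxd1.L, a gene of the forebrain and temporal retina, read 6.61 and 5.60 on injected and 8.40 and 7.61 on uninjected sides of double morphants. In control morphants it read 7.26 and 4.53 on injected and 7.96 and 7.13 on uninjected sides. Each injected array was below its partner, and in control morphants the sides overlapped between the replicates. foxd2.S, a gene of the somites, read 4.78 and 2.53 on injected and 6.02 and 5.73 on uninjected sides of double morphants, and 6.18 and 2.66 on injected and 6.03 and 5.51 on uninjected sides of control morphants. The 2 lowest of these values lie near the lowest value of the arrays, so that the size of the drop in replicate 2 is a lower bound. They come from the same 2 arrays on which myh4.L and actc1.L were low, and the part of muscle or somite content in the foxd2.S values was not tested.

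Between the sides of double morphants the differences were -2.50 ± 0.65 for foxd3.L, -1.58 ± 0.51 for foxd3.S, -1.90 ± 0.91 for foxd1.L and -2.22 ± 1.22 for foxd2.S. In control morphants they were -1.40 ± 0.65, -1.11 ± 0.51, -1.65 ± 0.91 and -1.35 ± 1.22 in the same order. None was called in either comparison (local fdr 0.646 to 0.978 in double and 0.256 and above in control morphants), where 1.62% and 3.98% of all genes were called. No forkhead gene was called between the sides of double morphants or between those of control morphants. At an unadjusted p below 0.05 limma gave 3 forkhead genes higher and 2 lower in double morphants, where 21.2% of all genes passed, and 3 higher in control morphants, where 5.13% passed.

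The effect in double morphants was not called different from that in control morphants for any forkhead gene, against 3.16% of all genes. Of the 30, 1 gene, foxj1.2.L, had an unadjusted p below 0.05 in limma, against 6.5% of all genes. The difference of the effects was -1.10 for foxd3.L (95% interval -3.35 to 1.16) and -0.47 for foxd3.S (-2.25 to 1.30). For foxd1.L and foxd2.S it was -0.25 (-3.37 to 2.88) and -0.87 (-5.07 to 3.34). Intervals this wide leave differences of several fold in either direction undetectable with 2 arrays per group. They come from the model of group means, which does not use the pairs of sides.

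The size of these differences followed the experiment. In replicate 1 foxd3.L differed between the sides by -0.58 in control and -1.73 in double morphants, and in replicate 2 by -2.23 and -3.26. For foxd1.L the values were -0.70 and -1.79 in replicate 1 and -2.60 and -2.01 in replicate 2. Replicate 2 of the injected control sides was the array that stood apart for some midline genes. Without it the differences in control morphants were -0.44 for foxd3.L, -0.49 for foxd3.S and -0.29 for foxd1.L. The difference of foxd2.S was 0.41 and turned its sign. Without replicate 1 of the injected control sides the differences were -2.36, -1.72, -3.01 and -3.11 in the same order. Replicate 2 of the injected control sides was also left out for all 30 forkhead genes. The difference between the sides of control morphants then changed sign for 8, namely foxa1.L, foxa4.L, foxa4.S, foxb1.S, foxd2.S, foxm1.S, foxp1.S and foxp4.S. Both uninjected control arrays stayed in these values. Within the replicate 1 pair alone, foxa1.L (-0.009), foxm1.S (0.32), foxp1.S (0.36) and foxp4.S (-0.04) kept the sign they had over all arrays. Between injected sides of double and control morphants 9 of the 30 changed sign without replicate 2 of the injected control sides. None of these genes had been called in the comparison concerned. Averaged over both kinds of morphant, a comparison added after the values had been seen, the differences were -1.95 ± 0.46 for foxd3.L, -1.34 ± 0.36 for foxd3.S, -1.77 ± 0.64 for foxd1.L and -1.78 ± 0.86 for foxd2.S. None was called in limma, nor any other forkhead gene, against 1.23% of all genes, and 8 of the 30 had an unadjusted p below 0.05, against 20% of all genes. In this average foxd3.L, foxd3.S, foxj1.2.L and foxi2.S were the 4 of 30 forkhead genes without overlap between the 4 injected and 4 uninjected arrays, a pattern of 9.45% of all genes.

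**Figure D4:**
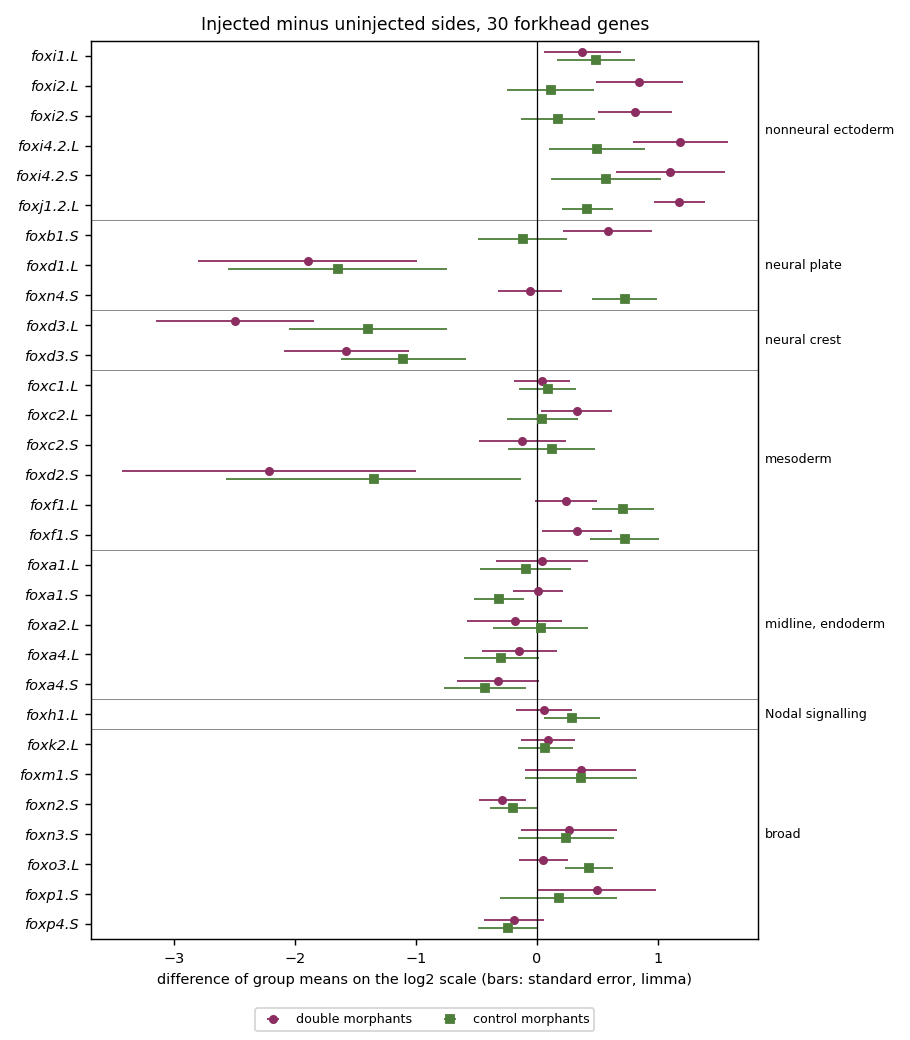
Differences between injected and uninjected sides on the log2 scale for the 30 forkhead genes tested, grouped by lineage (labels at the right), in double morphants (circles) and control morphants (squares). Bars are standard errors from limma with 2 arrays per group. foxd1.L, foxd2.S, foxd3.L and foxd3.S lie below -1 in both kinds of morphant, and the 6 genes of nonneural ectoderm lie above 0 in both. In the replicate 1 pair of control sides foxi1.L, foxi2.L, foxi4.2.L and foxi4.2.S were below 0.

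The other genes of these lineages were mixed in sign. Of 17 other neural crest genes, 10 were lower and 7 higher on injected sides of double morphants (median -0.23), and 9 were lower and 8 higher on those of control morphants (median -0.07). Of these, 1 fell in double morphants, sox8.L, and 2 fell in control morphants, sox8.L and twist1.L. The difference of twist1.L was -0.75 ± 0.33, just within the threshold (local fdr 0.1999). Without replicate 2 of the injected control sides the differences in control morphants were -0.46 for twist1.L and -0.68 for sox8.L. sox8.L, an early crest factor, read 3.82 and 4.0 on injected and 5.44 and 6.35 on uninjected sides of double morphants and fell by 1.98 (SE 0.33, local fdr 0.0737). In control morphants it fell by 0.90 (SE 0.33, local fdr 0.0749). sox10.L, a marker of migrating crest, lay at 2.15 or below on all 4 injected arrays and on 1 uninjected control array, and at 5.07, 6.05 and 5.56 on the other uninjected arrays. Border and crest genes with the opposite sign in double morphants were pax3.L and pax3.S, with 1.15 and 0.69, tfap2a.L and tfap2a.S, with 0.42 and 0.43, and msx1.L and msx1.S, with 0.42 and 0.24, and none of them was called.

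Of 25 other genes of the neural plate and forebrain, 3 fell and 1 rose on injected sides of double morphants (median -0.23), and 5 fell on those of control morphants (median -0.47). nkx2-1.L, a gene of the ventral forebrain, read 4.06 and 4.05 on injected and 6.97 and 6.70 on uninjected sides of double morphants. It fell by 2.78 (SE 0.39, local fdr 0.0115) there and by 1.43 (SE 0.39, local fdr 0.00298) in control morphants, where the difference was -0.83 without replicate 2 of the injected sides. The eye field gene rax.L fell by 1.48 (SE 0.33) in control morphants, and its difference of -1.58 ± 0.33 in double morphants was not called (local fdr 0.331). These differences were similar in size. The spread fitted for unchanged genes was wider in double (SD 1.72) than in control morphants (SD 0.865). The gene that rose was zic1.S, a factor of the neural plate and its border, with 1.07 ± 0.18 (local fdr 0.133). The other neural forkhead genes differed from foxd1.L. foxb1.S, of the neural plate, differed by 0.59 ± 0.37 in double and -0.12 ± 0.37 in control morphants (0.28 without replicate 2 of the injected sides), and foxn4.S, a gene of retinal and spinal cord progenitors, by -0.06 ± 0.27 and 0.72 ± 0.27.

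The forkhead genes of midline and endoderm changed little with the side. The 5 genes differed between the sides by -0.32 to 0.04 in double and by -0.43 to 0.03 in control morphants. foxa4.L and foxa4.S, which are active in the organizer, notochord and floor plate, were nearly equal between the sides in replicate 1 (-0.02 to 0.21) and lower on injected sides in replicate 2. In replicate 2 foxa4.L differed by -0.70 in control and -0.50 in double morphants and foxa4.S by -0.87 and -0.62. Without the injected control array of replicate 2 the difference in control morphants was 0.04 for foxa4.L and 0.00 for foxa4.S. Of 21 other genes of midline and endoderm, 2 fell and 1 rose on the injected sides of control morphants (median 0.17), and none was called in double morphants, where 1 had an unadjusted p below 0.05 in limma (median -0.01). Those that fell were frzb2.L, with -1.64 ± 0.47 (local fdr 0.00652), and not.L, with -1.16 ± 0.51 (local fdr 0.1986), and without the array that stood apart their differences were -1.05 and -0.57. shh.L and admp.S, a BMP-like signal of the organizer, were not called, at -3.47 and -2.16, and at -0.49 and -0.73 without that array. The gene that rose was gata6.L, by 0.50 (SE 0.16, local fdr 0.151). foxa1.L and foxa1.S, endodermal and floor plate genes, read 9.33 to 10.01 and 8.99 to 9.56 on the 8 arrays.

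foxa2.L, a pioneer factor of endoderm, notochord and floor plate, had the largest differences between the morphants among the forkhead genes of midline and endoderm. It read 6.56 and 6.15 on injected and 6.70 and 5.95 on uninjected sides of control morphants, and 5.17 and 5.45 on injected and 5.95 and 5.05 on uninjected sides of double morphants. The differences were -1.04 ± 0.39 on injected and -0.83 ± 0.39 on uninjected sides, and neither was called (local fdr 0.685 and 0.501). A further probe set for foxa2.L, which reads higher, gave -0.49 and -0.46. Among the other genes of midline and endoderm, 1 of 21 fell between injected sides, gata6.S, and none was called between uninjected sides, where none had an unadjusted p below 0.05 in limma.

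foxh1.L, which encodes the Smad partner of Nodal signalling, read 9.62 and 10.06 on injected and 9.39 and 9.71 on uninjected sides of control morphants. In double morphants it read 9.14 and 9.46 and 9.19 and 9.29. On injected sides the double morphants lay below the control morphants by 0.54 (SE 0.23, local fdr 0.809), which was not called. Of 14 other genes of maternal and Nodal signalling, 12 were higher and 2 lower in double than in control morphants on injected sides. Their median was 0.25, and 2 of the 14 were called higher. They were smad2.L, by 0.85 (SE 0.14, local fdr 0.00603), and gsc.S, an organizer gene, by 1.09 (SE 0.23, local fdr 0.0811). gsc.S read 4.80 and 4.55 on injected and 5.59 and 5.87 on uninjected sides of control morphants. This difference of -1.05 ± 0.23 between control sides was called (local fdr 4.9e-05). gsc.L was called lower on injected control sides as well (local fdr 0.0024). Between the sides of double morphants gsc.S differed by -0.28 ± 0.23, which was not called. Between uninjected sides of double and control morphants 11 of the 14 were lower (median -0.39). Within the same list, 2 rose on the injected against the uninjected sides of double morphants. They were smad2.L, which encodes a Nodal signal transducer, by 1.05 (SE 0.14, local fdr 0.0265), and vegt.L, a maternal T-box factor, by 1.79 (SE 0.25, local fdr 0.0382).

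**Figure D5:**
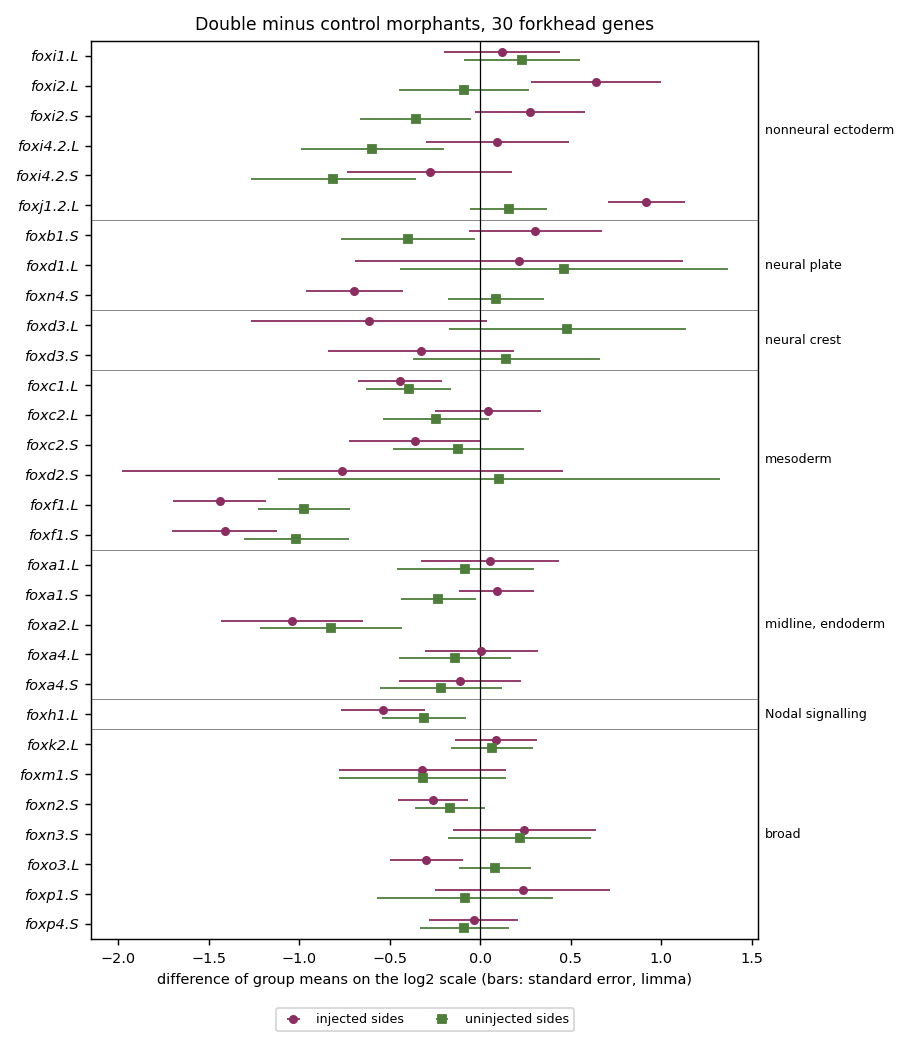
Differences between double and control morphants on the log2 scale for the 30 forkhead genes tested, grouped by lineage (labels at the right), on injected sides (circles) and uninjected sides (squares). Bars are standard errors from limma with 2 arrays per group; foxf1.L and foxf1.S lie between -1.44 and -0.97 on both sides, and foxj1.2.L is at 0.92 on injected and 0.16 on uninjected sides.

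None of the 7 broadly expressed forkhead genes was called in any comparison, and none had an unadjusted p below 0.05 in limma. Between the sides they differed by -0.29 to 0.50 in double and by -0.24 to 0.43 in control morphants, and between the morphants by -0.32 to 0.24 on injected and -0.32 to 0.22 on uninjected sides. foxm1.S, the regulator of G2/M genes in cycling cells, read 6.80 and 7.37 on injected and 6.50 and 6.96 on uninjected sides of double morphants. In control morphants it read 6.91 and 7.91 on injected and 6.59 and 7.50 on uninjected sides. It was higher on the injected side in all 4 pairs, by 0.31 to 0.42, and the differences of 0.36 ± 0.46 in both kinds of morphant were not called. This SE comes from group means without pairing. It therefore holds the gap between replicates, which was 0.46 to 0.99 in the 4 groups. Without replicate 2 of the injected control sides, but with both uninjected control arrays, the control difference of 0.36 was -0.13. The replicate 1 pair of control sides alone differed by 0.32. Of 20 cell cycle genes, 17 were higher on injected sides of double morphants (median 0.57, against 0.04 over all genes), and 17 on those of control morphants (median 0.24, against 0.04). In double morphants 1 was called higher and in control morphants 1, birc5.L, was called lower, with -0.42 ± 0.18. The gene called in double morphants was cdk1.S, the mitotic kinase, which rose by 0.95 (SE 0.17, local fdr 0.193). foxo3.L, a factor of insulin and stress signalling, read 6.55 to 7.32, and foxk2.L, foxn2.S, foxn3.S and foxp4.S spanned at most 0.925 between their lowest and highest arrays. foxp1.S read 4.11 to 5.34 and was higher in replicate 2 in every group.

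Differences between the experiments reached the size of those between the groups. 4 of the 30 forkhead genes (foxh1.L, foxm1.S, foxn2.S and foxp1.S) were higher in replicate 2 in all 4 groups, and 8 were lower (foxa1.L, foxc1.L, foxc2.L, foxd1.L, foxd2.S, foxk2.L, foxn3.S and foxp4.S). The other 18 had no common sign. Over all 8219 genes, 2291 were higher and 2159 lower in replicate 2 in all 4 groups. The largest difference between replicates of one group was -3.52, for foxd2.S on injected control sides.

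For 7 base symbols both copies were tested, *foxa1*, *foxa4*, *foxc2*, *foxd3*, *foxf1*, *foxi2* and *foxi4.2*. Between the sides of double morphants the copies had the same sign in 6 of 7 pairs and their differences lay 0.03 to 0.92 apart, with the largest gap for *foxd3*. The exception in sign was *foxc2*, at 0.33 for foxc2.L and -0.12 for foxc2.S. Between injected sides of double and control morphants 4 of 7 pairs had the same sign, and *foxa4*, *foxc2* and *foxi4.2* did not, with gaps of at most 0.40. Between uninjected sides of double and control morphants all 7 pairs had the same sign and lay at most 0.34 apart. The probes of near-identical copies can bind both transcripts. foxi4.2.S and foxc2.S were read by probe sets whose names mark shared or similar sequences (_s_at and _x_at). Those of foxi4.2.L, foxh1.L, foxp1.S and foxp4.S end in _a_at, which marks several transcripts of the same gene. The share of each copy in these values is therefore uncertain, and a pair of copies is not a pair of independent measurements.

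Over the 30 forkhead genes together, the median difference was 0.06 between the sides of double morphants, against 0.04 over all 8219 genes, and 0.10 against 0.04 in control morphants. Between double and control morphants it was -0.07 on injected sides (all genes -0.01) and -0.13 on uninjected sides (all genes -0.03). Differences over 1 in size were found between the sides of double morphants for 7 of the 30, namely foxd1.L, foxd2.S, foxd3.L and foxd3.S below and foxi4.2.L, foxi4.2.S and foxj1.2.L above 0, and for 11% of all genes.

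The 9 forkhead genes below the filter were foxd4l1.2.L, foxe1.L, foxe3.L, foxj2.L, foxj2.S, foxo1.L, foxp2.L, foxp3.L and foxr1.L. Most of them stood at the lowest value of the arrays throughout, and 8 of the 49 probe sets read below 2.2 on every array. foxe1.L, a gene of thyroid and pharyngeal endoderm, read 2.48 to 3.38. foxr1.L, an oocyte gene, read 2.83 to 3.38 on 7 arrays and 4.17 on replicate 2 of the injected control sides. For these genes no difference between groups could be read at this signal.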

How the data were processed

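Expression was measured on 8 Affymetrix *Xenopus laevis* arrays. The deposited values are on the log2 scale. The authors computed them with GCRMA, for which the sources used here give no version. All 8 arrays entered 1 linear model with 4 group means, fitted in R 4.3.3 with limma 3.58.1 (4 residual and 2.08 prior degrees of freedom). In place of the filter on present calls, for which probe-level files would be needed, genes had to reach a mean of at least 4 in at least 1 group. Probe sets of variance 0 and array controls were dropped, and the most variable probe set was kept per gene, which left 8219 genes. Genes were named from the platform's probe annotation (3 forkhead probe sets with several genes were left out) and checked against RefSeq. The array carries no count of molecules, and the number of arrays limits the precision.

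Calls were made at a local fdr below 0.2 with an empirical null fitted by maximum likelihood (120 bins, 7 spline degrees of freedom). The procedure was written here after the study's. It was tried on simulated data only for the sides of double morphants and with independent errors. Deviations of the real arrays are correlated, so that this trial does not bear on the calls given here. The fit has few degrees of freedom, and a call is a rank among genes rather than a bound on wrong calls. Adjusted p over all 8219 genes therefore stand beside it. The fitted null had an SD of 1.72 between the sides of double and 0.865 between those of control morphants. The same difference and SE can thus be called in some comparisons and not in others. Named genes were those called in any of 5 comparisons, those without overlap and with a difference over 1 between the sides of double morphants, the largest of each lineage and pairs of L and S copies. foxa2.L, foxc1.L, foxb1.S, foxn4.S, foxi1.L, foxm1.S and the other broadly expressed genes were added after their values were seen. The members, lineages and marker lists were chosen with earlier results of these data known. Averages over sides or morphants were added after seeing the data.

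Replicates were read as experiments, and the sides of one kind of morphant and replicate as pairs, since they came from the same embryos. The main model did not use these pairs. Its SE and intervals for differences between sides therefore also hold differences between the experiments. Averages over sides count both sides of the same embryos as separate arrays, so that their SE and local fdr can be too small. The correlation across genes of the arrays' deviations from their group means was 0.767 for paired control sides and 0.653 for paired double morphant sides. It was 0.497 to 0.805 between other groups of the same replicate. Alternatives were blocks for pairs or experiments, another choice of probe sets, no filter, median centring, other null models and each array left out. The partner side stayed in when an array was left out, so these values also hold differences between the experiments.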

Additional observations from a re-analysis of the deposited data

How the results depend on the processing

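The averaged differences of both foxf1 copies between double and control morphants were the most stable calls. They were lost only at an adjusted p below 0.05 and with test statistics turned into z values, under which no forkhead gene (0) was called between double and control morphants on injected sides, on uninjected sides or averaged over sides. With a theoretical null the forkhead genes called were 7 between the sides of double morphants, 5 between injected sides, 1 between uninjected sides, 6 averaged over sides and 9 averaged over morphants. Without a filter on low values they were 1 between the sides of double morphants, 4 between those of control morphants, 1 in the difference of these effects, 4 averaged over sides and 1 averaged over morphants. The brightest probe set per gene, all probe sets of 1 gene and arrays centred on their medians each gave 1 between the sides of double morphants, foxj1.2.L. The shares of all genes called under the alternative settings are not given here. These counts are therefore no result about the forkhead genes as a group. Between the sides of double morphants, 21.2% of all genes had an unadjusted p below 0.05 in limma, and the fitted null had an SD of 1.72.

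With the experiment as a block 1 forkhead gene, foxf1.L, was called between injected and 1 between uninjected sides, and 2 averaged over sides. The share of all genes called with this block is not given here either. These counts are therefore no result about the forkhead genes as a group. The pairs of sides as a block left 0 called between the sides of either kind of morphant, as in the main model. Differences between double and control morphants are not estimated with this block, since each pair holds only 1 kind of morphant. The calls of foxf1.L, foxf1.S and foxj1.2.L were therefore not tested with it.

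With each array left out in turn, the forkhead genes called ranged from 0 to 1 between the sides of double morphants, from 0 to 4 between those of control morphants and from 0 to 1 in the difference. They ranged from 0 to 3 between injected sides, from 0 to 5 between uninjected sides, from 2 to 4 averaged over sides and from 0 to 2 averaged over morphants. Changes of sign were found for foxh1.L between the sides of double morphants (-0.097 to 0.219), for foxd2.S (-3.11 to 0.41), foxp1.S (-0.433 to 0.791, in 2 of the 8 cases, one of them -0.25) and foxa4.S (-0.862 to 0.00205) between those of control morphants, and for foxj1.2.L between uninjected sides (-0.0784 to 0.391). In these fits a lone array of a group is assumed to vary like the other groups. Over 39 differences of single genes, 581 of 654 alternative values kept their direction and their side of the threshold, 34 gained a call, 33 lost one and 6 changed sign. The causes were not tested. Signal near the lowest value limits foxd2.S and the 9 genes below the filter, and 2 arrays per group limit every interval.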
